A study of Mus musculus with 6 samples.

Results

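The genes described here are those of the MAP kinase cascade, chosen by name: every mouse gene symbol that has Map2k, Map3k, Map4k or Mapk followed by a digit, or that starts with Mapkapk. The name rule took 53 of 48005 gene entries. Of these, 46 encode kinases, in 5 tiers: 5 MAP4K, 18 MAP3K, 7 MAP2K, 13 MAPK and 3 MAPKAPK entries. The other 7 are the scaffold genes Mapk8ip1, Mapk8ip2 and Mapk8ip3, the antisense transcript Map2k3os, and Mapk1ip1, Mapk1ip1l and Map3k7cl, which share only the start of the name. In 4 entries the deposited counts join the member with genes whose exons overlap it: Map2k7 with Tgfbr3l and Gm49320, Map3k14 with 1700028N14Rik, Mapkapk5 with Gm42878 and Adam1a, and Mapk8ip3 with Eme2.

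RNA of microglia in culture, taken from CD1 mice, was sequenced; microglia are the macrophages that reside in the brain. The control group had 3 samples, and the treated group had 3 samples that received extracellular vesicles (EVs), the membrane-bound particles that cells release. The EVs came from neural stem cells of the subventricular zone of CD1 mice, a cultured primary cell type, and were collected by serial centrifugation. Neither the content of the control treatment nor the EV dose, the time of treatment or the age of the mice is given in the labels, which also do not say whether samples of a group were separate cultures, so every p-value measures the spread between these 6 samples, and that spread may be technical. Each library goes by its group and the letter in its title.

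In a MAP kinase cascade, kinases phosphorylate one another in a fixed order: a MAP4K activates a MAP3K, which activates a MAP2K, which activates a MAPK, and the MAPK in turn activates targets that include the MAPKAPK kinases. The main branches are named for their last kinase: ERK (extracellular signal-regulated kinase), JNK (c-Jun N-terminal kinase), p38 and ERK5, the large kinase that Mapk7 encodes. In macrophages and microglia, pattern-recognition and cytokine receptors engage these branches, and the p38 branch is known for its control of the stability and translation of cytokine messenger RNAs. The activity of the kinases lies in their phosphorylation, which RNA levels do not measure.

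EV-treated and control microglia differed in most members. Of the 48 entries with enough counts to be tested, 22 rose, 14 fell and 12 did not pass an adjusted p of 0.05 in edgeR's quasi-likelihood test, with adjustment over all 16605 entries tested. Over all of those entries, 33.0% rose and 33.5% fell, 66.5% in all, so calls were common throughout these libraries. The share of members called, 75%, has to be read against that background. In 4 of the members that rose, Map3k13, Map3k21, Mapk13 and Mapk15, only the EV-treated group had every library at the filter's level (0.0735 CPM before TMM scaling). These members thus passed the filter through the group where they were high. They are given below by their values with no test, and without them 18 rose and 14 fell of 44 members. Changes of at least 1 on the log2 scale were seen in 10 rising members (6 without those 4) and 8 falling members, against 20.4% and 19.6% of all entries. In 40 of the 48 the EV-treated and control libraries did not overlap, which was so for 71.3% of all entries. The median log2 fold change of the tested members was 0.22, against -0.02 over all entries. Both this median and the count of 40 include the 4 members that passed the filter through the EV-treated group. Neither is therefore read as a result about the members. The members not tested, because of too few counts, were Mapk4, Mapk10, Mapk12, Map3k7cl and Mapk8ip2, all at 0.211 CPM or less in every library. CPM stands for a library's counts brought to a common total after TMM scaling.

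Fold changes are relative to the TMM scale. Scaling by library totals alone moved the median of all entries to -0.38, and upper-quartile scaling moved it to -0.14. With them, 15 members rose and 20 fell, and 20 rose and 19 fell, respectively. Of all calls, 49.7% were rises under TMM, 44.1% under upper-quartile scaling and 34.0% under library totals. Ratios between 2 members of one library do not depend on the scaling and are given for related kinases.

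**Figure D1:**
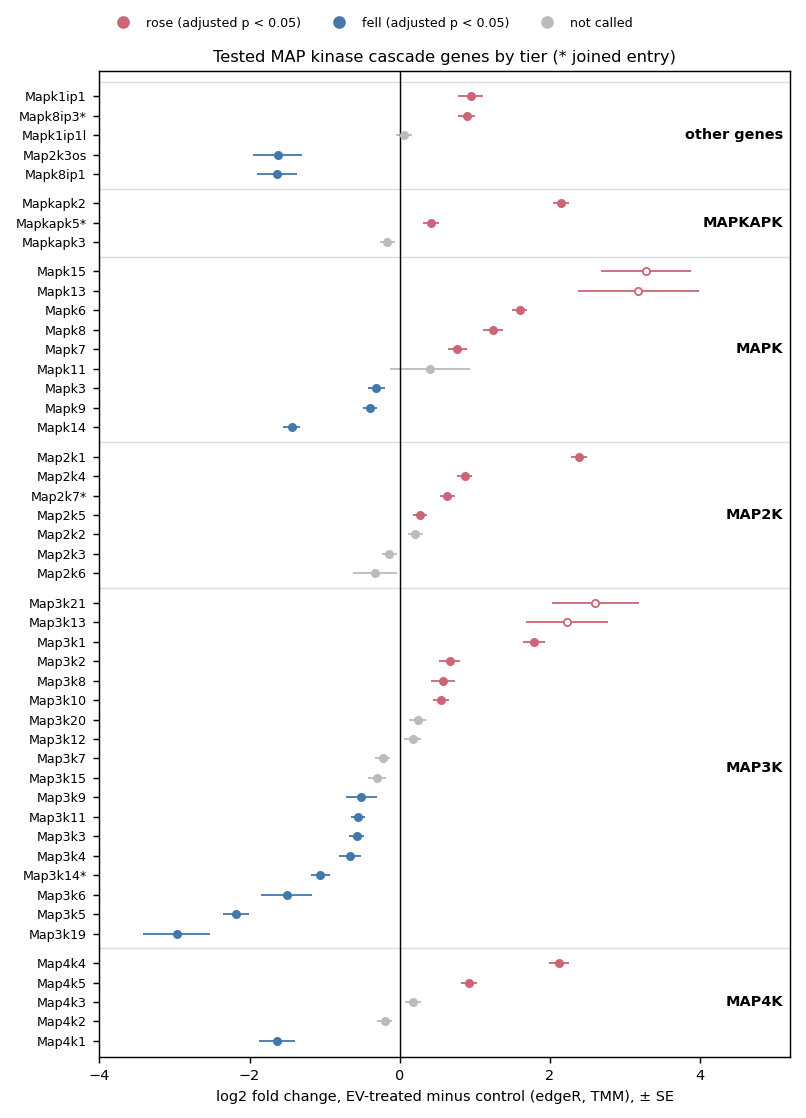
Log2 fold changes of 47 of the 48 tested members, EV-treated minus control, grouped by tier, with points for the edgeR estimate and bars for its SE (3 libraries a group); colour gives the call at an adjusted p of 0.05. Open points mark the 4 members that passed the filter through the EV-treated libraries alone. Each of the 5 kinase tiers holds members near 0 beside filled points at 1.59 or more, and the falls of at least 1 lie in the MAP4K, MAP3K and MAPK tiers and among the other genes.

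Other cell types and the state of the cultures were read from marker genes. The summed level of 12 microglia markers was 5929 to 7648 CPM in control and 3265 to 3343 CPM in EV-treated libraries, and 3 of the 12 had a higher mean after EVs. The myeloid genes Csf1r (775 and 807 CPM) and Itgam (909 and 927 CPM) had close means in both groups, whereas P2ry12 and Tmem119, defining markers of microglia in the brain, were low already in control at 3.77 and 7.69 CPM. Of other lists, 6 astrocyte markers summed to 10.9 to 15.5 CPM in control and 88.3 to 123 CPM in EV-treated libraries; 3 of the 6 had a higher mean after EVs. Aldh1l1 made up most of the control sum and went from 13.4 to 1.72 CPM, whereas Slc1a2 reached 74.8 CPM and Gja1 29.1 CPM after EVs, and Gfap was at 0.0834 and 0.0365 CPM. The 8 oligodendrocyte-lineage markers summed to 213 to 440.3 and 30.6 to 43.8 CPM, mostly Cspg4, with 3 of 8 higher after EVs, and Mog and Olig1 were at 0 in all EV-treated libraries. The 5 neural stem cell markers summed to 46.4 to 82.9 and 4.59 to 6.95 CPM (mostly Nes in control, 2 of 5 higher after EVs), and the 5 fibroblast markers to 14.8 to 40.6 and 11.6 to 17.7 CPM (2 of 5 higher). The 4 endothelial markers summed to 71.4 to 170.2 and 17.3 to 24.0 CPM, a difference that lay in Flt1, while 3 of the 4 had higher means after EVs, among them Pecam1 (0.247 and 2.34 CPM) and Cdh5 (0.129 and 1.86 CPM). The 5 neuron markers stayed under 0.62 CPM in sum and the 4 lymphocyte markers under 0.13 CPM, with Cd3g at 0 in all control libraries. In bulk RNA, fewer cells of a type and less RNA per cell cannot be told apart, and the part of any other cell type in the values below was not tested.

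The MAP4K tier, whose kinases link membrane receptors and small GTPases to the cascades, was led by Map4k3 in control and by Map4k4 in EV-treated microglia. Map4k4, a kinase of the JNK branch (chromosome 1, 39900913 to 40026310, plus strand, GRCm38), stood at 198, 158 and 181 CPM in control A, B and C and at 763, 716 and 858 CPM in EV-treated A, B and C. The lowest EV-treated library was thus well above the highest control library. Its log2 fold change was 2.12 (SE 0.13, adjusted p = 5.93e-07). Map4k3, which takes part in amino acid sensing, was at 113, 96.6 and 100.4 CPM in control and at 110.5, 114 and 125 CPM after EVs. The groups overlapped, and the log2 fold change of 0.17 (SE 0.11, adjusted p = 0.179) was not called; under library totals alone its sign turned. Per kilobase of counted exon, Map4k3 was at 24.4 ± 2.04 CPM in control (SD, n = 3) and Map4k4 at 18.7 ± 2.06, while in EV-treated libraries Map4k3 was at 27.5 ± 1.84 and Map4k4 at 81.3 ± 7.51. The ratio of Map4k4 to Map4k3 per length was 0.763 ± 0.0362 in control and 2.95 ± 0.147 in EV-treated libraries, with no overlap.

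Map4k1, the haematopoietic progenitor kinase that restrains receptor signalling in leukocytes, went the other way. It had 3.38, 3.64 and 4.20 CPM in control and 1.05, 0.923 and 1.63 CPM in EV-treated libraries. The log2 fold change was -1.64 (SE 0.24, adjusted p = 0.000189). Map4k5 rose by a log2 of 0.92 (21.9 ± 1.96 to 41.5 ± 1.56 CPM, SD, n = 3 each), and Map4k2 had a log2 fold change of -0.20 that was not called. It was called as fallen under upper-quartile scaling (-0.32), under library totals (-0.57) and on its bin with the most counts (-0.83). On that bin Map4k1 missed the threshold (-1.56, adjusted p = 0.0734). A second RefSeq promoter of Map4k1 is among the 6 of 54 member promoters with an NF-kB motif match, which 8.46% of all promoters held. Its stretch is shown for that reason (GRCm38.p6, chr7:28982665-28982764, plus strand, 189 to 90 bases before that start site), with the match in capitals.
Map4k1: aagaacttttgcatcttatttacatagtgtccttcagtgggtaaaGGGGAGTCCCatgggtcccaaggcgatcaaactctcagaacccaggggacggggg

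The MAP3K tier, the level at which stress, cytokine and pattern-recognition signals enter, held changes in both directions. Of its 18 members 6 rose (Map3k13 and Map3k21 among them), 8 fell and 4 were not called. Of all entries, 33.0% rose and 33.5% fell. With library totals alone, 3 of the tier's 18 members rose and 10 fell. Its sum per length was 87.5 ± 3.55 CPM per kilobase in control and 93.5 ± 6.03 in EV-treated libraries, so its members traded places within a total whose ranges overlapped. Map3k1, an activator of the JNK branch that also carries a ubiquitin ligase domain, had 66.4, 55.8 and 76.4 CPM in control and 229, 203 and 255 CPM in EV-treated libraries (log2 fold change 1.79, SE 0.14, adjusted p = 3.34e-06). It supplied 10.1% ± 1.27 of the tier's level per length in control and 32.8% ± 1.66 after EVs (SD, n = 3 each), which took it from the fourth rank to the first. Map3k11, a mixed-lineage kinase and the most abundant of the tier per length in control, had 69.8, 71.5 and 67.6 CPM there and 49.2, 45.8 and 46.6 CPM in EV-treated libraries. The groups lay apart (log2 fold change -0.56, SE 0.09, adjusted p = 0.000400).

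Map3k5, the redox-sensitive kinase ASK of stress responses, fell by 2.18 on the log2 scale (SE 0.17, adjusted p = 3.11e-06). Its libraries had 25.6, 22.0 and 29.0 CPM in control and 5.37, 4.62 and 6.94 CPM after EVs. Map3k6, its close relative, had 1.34, 1.48 and 0.960 CPM in control and 0.339, 0.325 and 0.656 CPM in EV-treated libraries (log2 fold change -1.51, SE 0.34, adjusted p = 0.00297), a call that its bin with the most counts did not make (-1.05, adjusted p = 0.106). Both Map3k5 and Map3k6 were therefore lower in every EV-treated library than in any control library. In the joined entry of Map3k14, the NF-kB-inducing kinase of the non-canonical NF-kB pathway, the values were 17.8, 14.9 and 16.0 CPM against 8.38, 7.14 and 7.92 CPM (log2 fold change -1.06, SE 0.12, adjusted p = 4.55e-05). The partner of this entry took few counts: 98.5% of them lay in bins of Map3k14 alone, where the log2 fold change was -1.08. Map3k19 had 3.01, 2.18 and 3.44 CPM in control and 0.137, 0.334 and 0.625 CPM in EV-treated libraries (log2 fold change -2.97, SE 0.44, adjusted p = 0.000229).

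A pair of mixed-lineage and related kinases had very low levels throughout. Map3k21 had 3, 7 and 7 counts in control and 25, 43 and 17 counts in EV-treated libraries, or 0.0228, 0.0552 and 0.0371 CPM against 0.202, 0.378 and 0.133 CPM. Map3k13, the leucine zipper-bearing kinase, had 20, 18 and 10 counts in control and 41, 101 and 49 counts after EVs, or 0.152, 0.142 and 0.0530 CPM against 0.331, 0.888 and 0.383 CPM. Both stayed under 1 CPM in every library, and both passed the filter through the EV-treated group alone, so the separation of their groups is not read as a result.

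Among the smaller changes, Map3k2 (log2 fold change 0.66) and Map3k8 (0.58) rose. Map3k2 is an activator of the ERK branch of Mapk7, and Map3k8, also called Tpl2, is the kinase that carries Toll-like receptor signals to the ERK branch in macrophages. Neither call held with library totals alone, where the values were 0.30 and 0.20, and that of Map3k8 also missed the threshold without control A (adjusted p = 0.0527). Map3k10 (0.55) rose too, by 0.19 and not called under library totals. Map3k3, the closest relative of Map3k2, fell (-0.57), so that the ratio of Map3k2 to Map3k3 per length was 0.161 ± 0.0322 in control and 0.378 ± 0.0493 after EVs, with no overlap. Map3k4, which Gadd45 proteins activate, fell as well (-0.66). Map3k9 fell by 0.51 with an adjusted p of 0.0498, and its groups overlapped. That call was lost in 3 of the 6 fits that left out 1 library, those without control A (-0.29), EV-treated A (-0.55) and EV-treated B (-0.38), and also with RLE scaling, limma-voom and the stricter filter (adjusted p of 0.0576 to 0.0633), so Map3k9 is best read as undecided. Map3k7, or TAK1, the kinase through which Toll-like and interleukin receptors signal, had 63.7 ± 5.30 CPM in control and 54.3 ± 2.18 CPM after EVs and was not called (-0.23, adjusted p = 0.0688). Map3k20 (0.24) and Map3k15 (-0.31, adjusted p = 0.0524) were not called either. Map3k7 was called as fallen under upper-quartile scaling (-0.35), library totals (-0.59), on its bin with the most counts (-0.55) and without control B (-0.32). Map3k15 was called as fallen under the same scalings (-0.43 and -0.68), with no filter (-0.38) and without control A (-0.41). But 23.1% of its counts lay in its own bins, the rest in bins shared with Pdha1, and on its own bins the log2 fold change was -0.056 (adjusted p = 0.858). Map3k20 was called as risen without control C or EV-treated B and turned to -0.13, not called, under library totals.

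The promoter of Map3k10 holds an AP-1 match, one of 3 among the members, and is shown over the matched stretch (GRCm38.p6, chr7:27674748-27674831, minus strand, 250 to 167 bases before the start site), with the match in capitals.
Map3k10: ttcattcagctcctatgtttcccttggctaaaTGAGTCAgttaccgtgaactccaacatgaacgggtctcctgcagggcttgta

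Map3k12, the dual leucine zipper kinase best known from injured neurons, shows what overlapping genes do to these counts. Its entry had 36.0, 38.3 and 44.0 CPM in control and 47.0, 42.3 and 43.7 CPM after EVs, with overlapping groups, and was not called (log2 fold change 0.17, adjusted p = 0.192). But 3 bins at its end overlap Pcbp2, a gene for an RNA-binding protein on the opposite strand, and they held most of the counts. Those bins had 27.9, 30.8 and 36.2 CPM in control and 44.5, 40.3 and 40.3 CPM in EV-treated libraries. The 30 bins that belong to Map3k12 alone had 7.70, 7.22 and 7.26 CPM in control and 2.33, 1.77 and 3.33 CPM in EV-treated libraries. Every EV-treated library was lower there than every control library. In a fit over the bins of single genes, chosen after the data were seen, only 12.4% of the counts of the entry remained and the log2 fold change was -1.59 (SE 0.22, adjusted p = 0.000131). Of the other 52 members, Map3k9 alone changed its call in that fit, from fallen to not called (-0.39, adjusted p = 0.137), so that 22 members rose and 14 fell there. Over all genes of that fit 32.7% rose and 33.1% fell, 65.8% in all.

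**Figure D2:**
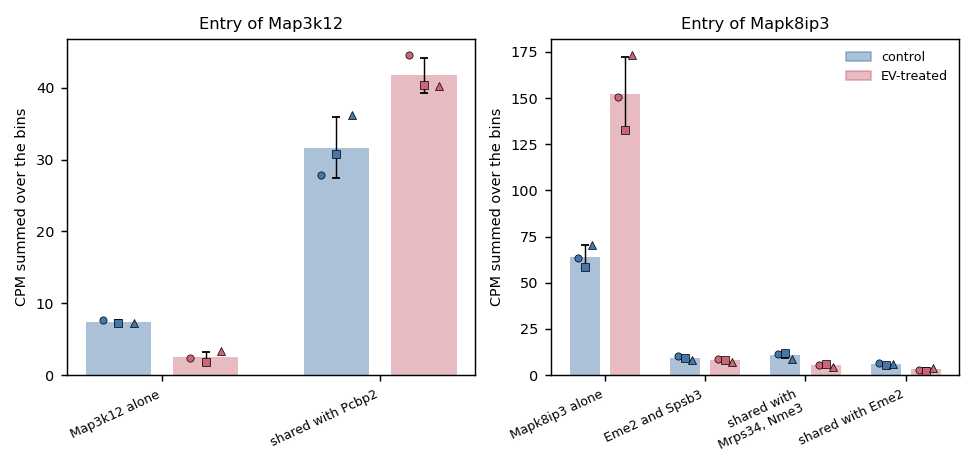
CPM summed over sets of exon bins of the Map3k12 and Mapk8ip3 entries, with bars for the mean of 3 libraries, error bars for the SD and points for libraries A (circle), B (square) and C (triangle). Bins of Map3k12 alone were lower after EVs (7.40 and 2.48 CPM), bins shared with Pcbp2 were higher (31.6 and 41.7 CPM), and bins of Mapk8ip3 alone were higher (64.2 and 152 CPM).

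The MAP2K tier holds the dual-specificity kinases that activate the MAPKs. Of its 7 members 4 rose, none fell and 3 were not called under TMM, whereas 2 rose and 1 fell with library totals alone. That is 57.1% called under TMM, against 66.5% of all entries, so these counts are not read as a trait of the tier. Among the rises is that of Map2k5, whose call held in 1 of the 6 fits without a library. Map2k1, which encodes MEK1 of the ERK branch (chromosome 9, 64185770 to 64253631, minus strand), changed most. It had 118, 114 and 114 CPM in control and 618, 585 and 613 CPM in EV-treated libraries, with no overlap (log2 fold change 2.39, SE 0.11, adjusted p = 6.64e-08). Map2k2, which encodes its close relative MEK2, had 131, 139 and 123 CPM in control and 149, 155 and 148 CPM after EVs. The EV-treated libraries lay above the controls here too, but the log2 fold change of 0.20 (SE 0.10, adjusted p = 0.0934) was not called, and it turned to -0.16 under library totals. With DESeq2 it was called (adjusted p = 0.0435). Per kilobase the pair stood level in control, at 34.1 ± 0.677 CPM for Map2k1 and 35.2 ± 2.19 CPM for Map2k2, and apart after EVs, at 179 ± 5.18 and 40.5 ± 1.0 CPM. Their ratio was 0.971 ± 0.0629 in control and 4.41 ± 0.231 after EVs (SD, n = 3 each). Map2k1 supplied 30.0% ± 0.81 of the tier's level per length in control and 65.1% ± 0.72 in EV-treated libraries.

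The sequences before the start sites of this diverging pair are shown whole, as the RefSeq table gives them on GRCm38.p6, to set them side by side; neither holds a match to the 3 motifs searched. That of Map2k1 is chr9:64253606-64253855 on the minus strand and that of Map2k2 is chr10:81105665-81105914 on the plus strand. Over the full promoter windows, which add 50 bases after the start site, G and C made up 69% of the Map2k1 window and 60.7% of the Map2k2 window.
Map2k1: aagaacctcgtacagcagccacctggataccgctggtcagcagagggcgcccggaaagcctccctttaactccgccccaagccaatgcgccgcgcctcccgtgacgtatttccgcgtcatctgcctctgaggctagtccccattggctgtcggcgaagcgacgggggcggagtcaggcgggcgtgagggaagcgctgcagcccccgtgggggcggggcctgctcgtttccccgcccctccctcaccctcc
Map2k2: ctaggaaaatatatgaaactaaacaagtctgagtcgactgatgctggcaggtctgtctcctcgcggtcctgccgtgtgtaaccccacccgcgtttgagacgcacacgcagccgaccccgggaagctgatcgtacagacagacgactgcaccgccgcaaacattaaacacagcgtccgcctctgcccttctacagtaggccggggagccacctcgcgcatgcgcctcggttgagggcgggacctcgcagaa

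Both activators of the JNK branch rose. Map2k4 went from 34.5 ± 2.76 to 62.7 ± 3.29 CPM (log2 fold change 0.86), and the joined entry of Map2k7 from 52.8 ± 3.36 to 82.0 ± 5.53 CPM (0.63). Bins of Map2k7 alone held 45.4% of the counts of its entry and rose by a log2 of 0.56. The call of the Map2k7 entry was lost under library totals (0.27, adjusted p = 0.0509). The ratio of Map2k4 to Map2k7 overlapped between groups, at 0.866 to 1.12 in control and 1.01 to 1.17 after EVs. Map2k5, the activator of the Mapk7 kinase, rose by a log2 of 0.27 (adjusted p = 0.0256), a call that held in 1 of the 6 fits without a library (adjusted p from 0.0469 to 0.0945) and that was lost under upper-quartile scaling (0.15), with no filter (0.20) and on the bin with the most counts (0.22), and turned to -0.092, not called, under library totals. The activators of p38 were not called: Map2k3 had a log2 fold change of -0.14 (called as fallen under upper-quartile scaling, -0.26, and library totals, -0.50) and Map2k6 one of -0.33, with 1.18, 2.88 and 1.77 CPM in the EV-treated libraries of Map2k6. Without EV-treated B, the highest of those, Map2k6 was called as fallen (-0.72, adjusted p = 0.0222).

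A second RefSeq promoter of Map2k7 holds an AP-1 match, shown in capitals (GRCm38.p6, chr8:4239968-4240064, plus strand, 137 to 41 bases before that start site).
Map2k7: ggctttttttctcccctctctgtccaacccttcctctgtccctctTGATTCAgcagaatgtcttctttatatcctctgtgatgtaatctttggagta

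In the MAPK tier, the kinases that give each branch its name, 10 of 13 members had enough counts to test. Of these, 6 rose (Mapk13 and Mapk15 among them), 3 fell and 1 was not called, where 33.0% of all entries rose and 33.5% fell. Mapk13 and Mapk15 passed the filter through the EV-treated group alone, so their rises are not read as a result. Mapk3, which encodes ERK1, was the most abundant of the tier per length in both groups. It had 417, 379 and 378 CPM in control and 324, 335 and 285 CPM after EVs, with no overlap (log2 fold change -0.31, SE 0.11, adjusted p = 0.0317). The call was lost in the fits without control A, EV-treated A or EV-treated C (adjusted p of 0.0572 to 0.0987).

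Mapk14, which encodes p38 alpha, the main p38 kinase of macrophages, fell (chromosome 17, 28691342 to 28748404, plus strand). It had 79.2, 86.7 and 83.9 CPM in control and 31.3, 26.8 and 33.8 CPM after EVs, with no overlap (log2 fold change -1.44, SE 0.11, adjusted p = 2.72e-06). The other p38 genes were low. Mapk11, p38 beta, had 0.797, 0.512 and 0.377 CPM in control and 0.258, 1.33 and 0.632 CPM after EVs, and was not called (0.40, adjusted p = 0.530). Mapk13, p38 delta, had 0, 11 and 12 counts in control and 70, 21 and 82 counts after EVs, or 0, 0.0867 and 0.0637 CPM against 0.565, 0.185 and 0.640 CPM. Mapk12, p38 gamma, had at most 12 counts in any library and was not tested. After EVs Mapk13 was still far below Mapk14 per length, at 0.306 ± 0.162 against 7.03 ± 0.811 CPM per kilobase in EV-treated libraries.

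The JNK genes moved apart. Mapk8, which encodes JNK1, had 15.4, 13.0 and 17.4 CPM in control and 33.7, 38.9 and 35.9 CPM after EVs, with no overlap (log2 fold change 1.24, SE 0.13, adjusted p = 1.97e-05). Mapk9, which encodes JNK2, fell from 45.5 ± 2.08 to 34.5 ± 0.191 CPM (-0.40). The ratio of Mapk8 to Mapk9 per length was 0.246 ± 0.0275 in control and 0.769 ± 0.0562 after EVs, so JNK2 transcripts were still the more abundant. Mapk10, the JNK gene known from neurons, had at most 27 counts in any library and was not tested.

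Of the atypical MAPKs, Mapk6, which encodes ERK3, had 60.1, 55.2 and 58.5 CPM in control and 179, 163 and 183 CPM in EV-treated libraries, with no overlap (log2 fold change 1.59, SE 0.10, adjusted p = 6.79e-07). It passed from the fourth to the second rank of the tier per length, while Mapk14 passed from the second to the fifth. Mapk15 had 5, 3 and 2 counts in control and 38, 28 and 18 counts after EVs, or 0.0380, 0.0236 and 0.0106 CPM against 0.307, 0.246 and 0.141 CPM. Mapk4, the closest relative of Mapk6, had at most 12 counts. Mapk7, which encodes the large kinase ERK5, rose by a log2 of 0.77, from 32.0 ± 1.33 to 54.5 ± 8.84 CPM.

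Of the MAPK promoters, a promoter of Mapk14 is shown as the sequence before a start site of the member of this tier that fell most (chr17:28691092-28691341, plus strand, no match to the 3 motifs). A stretch of a Mapk7 promoter is shown for its NF-kB match, in capitals (chr11:61494262-61494344, minus strand, the 83 bases before that start site). Both come from RefSeq on GRCm38.p6.
Mapk14: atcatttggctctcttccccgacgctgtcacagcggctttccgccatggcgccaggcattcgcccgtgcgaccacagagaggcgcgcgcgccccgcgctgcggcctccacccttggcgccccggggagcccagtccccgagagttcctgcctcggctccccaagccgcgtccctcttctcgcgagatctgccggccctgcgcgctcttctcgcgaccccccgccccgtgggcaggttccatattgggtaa
Mapk7: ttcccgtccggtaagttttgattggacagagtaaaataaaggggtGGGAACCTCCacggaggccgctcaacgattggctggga

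Among the MAPKAPK kinases, Mapkapk2, which encodes MK2, the p38 substrate that governs the stability of cytokine messenger RNAs, led in both groups and rose. It had 134, 139.8 and 149 CPM in control and 655, 610.1 and 605 CPM after EVs, with no overlap (log2 fold change 2.14, SE 0.11, adjusted p = 1.71e-07). Mapkapk3, which encodes its relative MK3, had 32.7 ± 1.06 and 29.1 ± 2.29 CPM and was not called (-0.17, adjusted p = 0.167); upper-quartile scaling, library totals and its bin with the most counts called it as fallen (-0.29, -0.53 and -0.34). The ratio of Mapkapk2 to Mapkapk3 per length was 7.86 ± 0.471 in control and 39.1 ± 2.28 after EVs. Set against its activator, the ratio of Mapkapk2 to Mapk14 was 2.43 ± 0.118 in control and 29.4 ± 3.52 after EVs. The joined entry of Mapkapk5 rose by a log2 of 0.42 (67.8 ± 5.83 to 90.5 ± 4.43 CPM). Bins of Mapkapk5 alone held 6.38% of the counts of that entry and rose by 0.55; under library totals the entry was not called (0.05). The sequence before the start site of Mapkapk2 is shown as that of the member of this tier that rose most (RefSeq, GRCm38.p6, chr1:131097844-131098093, minus strand); it held no match to the motifs.
Mapkapk2: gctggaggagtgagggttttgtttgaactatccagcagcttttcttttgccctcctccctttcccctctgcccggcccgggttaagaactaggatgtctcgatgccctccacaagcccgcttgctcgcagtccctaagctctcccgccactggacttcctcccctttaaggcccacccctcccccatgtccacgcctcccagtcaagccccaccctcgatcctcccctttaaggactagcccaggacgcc

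**Figure D3:**
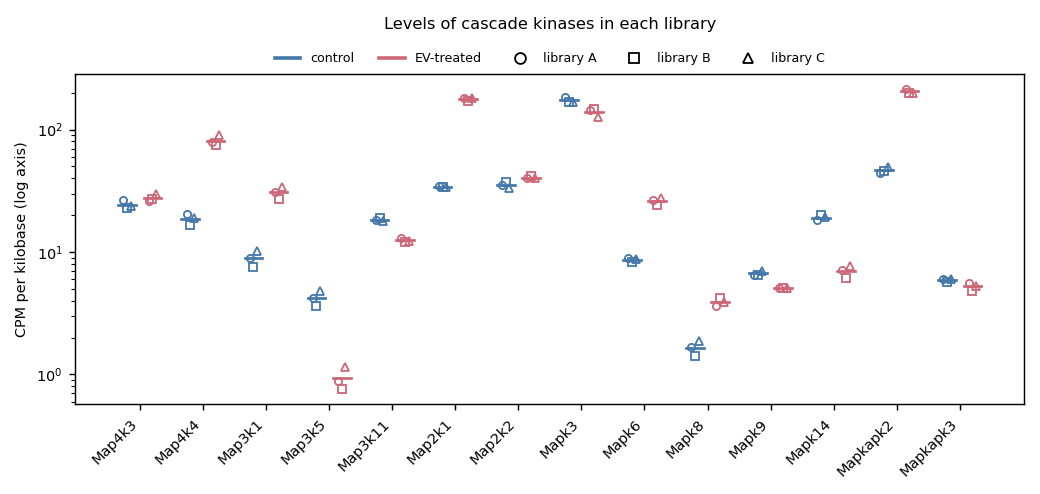
Levels of 14 kinases in CPM per kilobase of counted exon (log axis) in each library, with circles, squares and triangles for libraries A, B and C and lines for group means. Map4k4, Map3k1, Map2k1, Mapk6, Mapk8 and Mapkapk2 were higher in all EV-treated libraries, Map3k5 and Mapk14 were lower, and Mapk3 was the highest of these kinases in control.

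Read along the branches, each held a member that rose beside a member that fell. Over all entries 33.0% rose and 33.5% fell, so both directions were common throughout these libraries, and this is not read as a trait of the branches. The calls of Mapk3 and Map2k5 were lost in some fits without 1 library, as given above. In the ERK branch, Map2k1 rose by a log2 of 2.39 while Map2k2 and Mapk3 had values of 0.20 and -0.31. In the JNK branch, Map2k4, Map2k7 and Mapk8 rose by 0.86, 0.63 and 1.24 while Mapk9 fell by 0.40. In the p38 branch, Map2k3 and Map2k6 were not called, Mapk14 fell by 1.44 and Mapkapk2 rose by 2.14. In the branch of Mapk7, Map3k2, Map2k5 and Mapk7 rose by 0.66, 0.27 and 0.77, and Map3k3 fell by 0.57. Of the 9 ratios between related members that were computed, 6 did not overlap between the groups; those of Map2k4 to Map2k7, Map2k3 to Map2k6 and Mapk14 to Mapk11 did. Of all single entries 71.3% did not overlap. No such share was computed over ratios of other gene pairs, and the ratios were added after their values were seen, so this count is not read as a result. With 3 libraries against 3 an exact permutation test of a single ratio cannot go below 0.1, so no p is given for them.

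**Figure D4:**
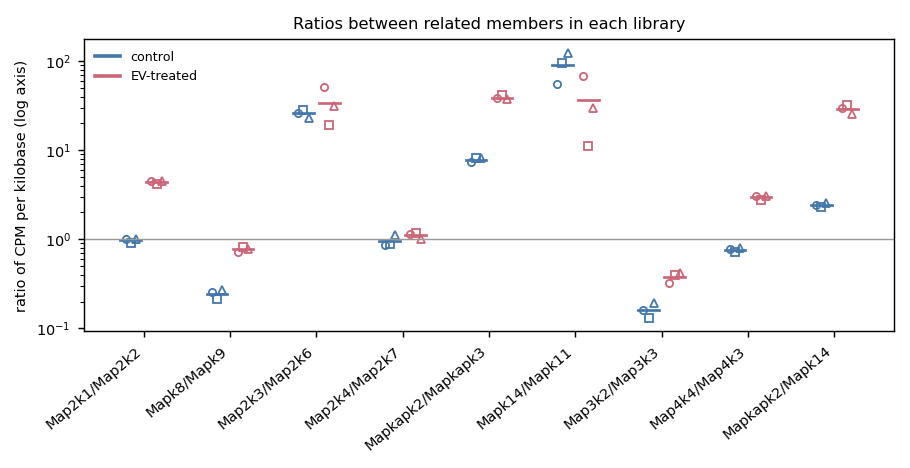
Ratios of CPM per kilobase between related members in each library (log axis), control beside EV-treated, with lines for group means. Map2k1 to Map2k2 went from 0.971 to 4.41 and Mapkapk2 to Mapk14 from 2.43 to 29.4, while Map2k4 to Map2k7 overlapped between groups.

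Summed per length, the tiers themselves differed in course. The MAP2K tier had 114 ± 3.22 CPM per kilobase in control and 274 ± 5.15 after EVs, the MAPKAPK tier 59.9 ± 2.00 and 220.3 ± 9.52, and the MAP4K tier 50.2 ± 4.02 and 117 ± 9.30 (SD, n = 3 each). Most of each of these differences lay in a single gene and not in the tier as a whole. Map2k1 went from a mean of 34.1 to 179 CPM per kilobase, Mapkapk2 from 46.3 to 205 and Map4k4 from 18.7 to 81.3. The sum of the MAPK tier, most of it Mapk3, was 234 ± 8.56 in control and 215 ± 7.51 after EVs. Within the tiers, Mapk3 supplied 74.2% ± 1.58 of the MAPK level in control and 64.9% ± 3.24 after EVs, and Mapkapk2 supplied 77.4% ± 1.65 and 93.0% ± 0.11 of the MAPKAPK level. These leading members were Mapk3 and Mapkapk2 in both groups, and changed from Map4k3 to Map4k4, from Map3k11 to Map3k1 and from Map2k2 to Map2k1 in the other tiers. Map2k1 and Map2k2 did not differ beyond their spread in control.

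**Figure D5:**
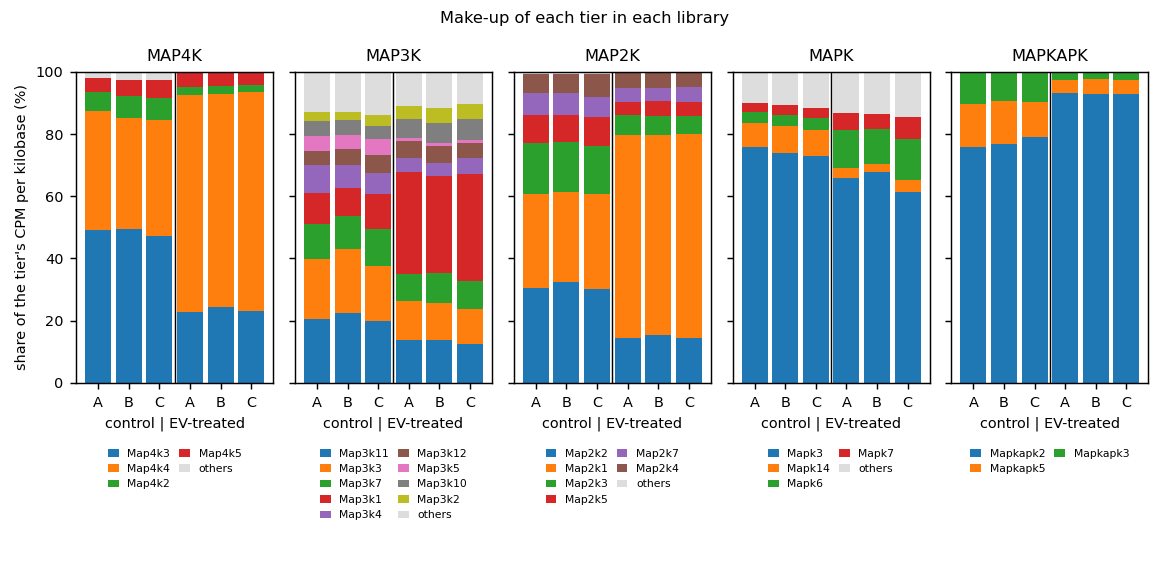
Share of each tier's summed CPM per kilobase held by its members in each library, as stacked bars that reach 100%, with the remaining members, among them all under 4% in both groups, pooled as others. Map4k4, Map3k1 and Map2k1 take larger shares in all EV-treated libraries, and Mapkapk2 goes from 77.4% to 93.0%.

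The members that are not kinases moved in both directions. Mapk8ip1, which encodes the scaffold JIP1 of the JNK branch, fell: it had 2.97, 4.70 and 3.0 CPM in control and 1.09, 1.47 and 0.867 CPM after EVs (log2 fold change -1.64, SE 0.26, adjusted p = 0.000382). Mapk8ip3, which encodes the scaffold and motor adaptor JIP3, rose by a log2 of 0.89 as a joined entry. In its own 78 bins, at 64.2 ± 6.16 CPM in control and 152 ± 20.2 CPM after EVs, the log2 fold change was 1.24, while the 21 bins shared with Eme2 had 6.21 ± 0.487 and 3.07 ± 0.881 CPM. The bin of this entry with the most counts, which gave a value of -0.11, overlaps Eme2 and Spsb3 and is no bin of Mapk8ip3. Map2k3os, an antisense transcript beside Map2k3, had 0.562, 0.473 and 0.520 CPM in control and 0.17, 0.176 and 0.156 CPM after EVs (log2 fold change -1.63, SE 0.32, adjusted p = 0.00141). Map2k3os lies on the minus strand of chromosome 11 (60920917 to 60931867), and Map2k3 on the plus strand from 60932033. Their start sites thus lie side by side, with transcription running away from each other. Their promoter windows overlap (60931818 to 60932117 and 60931804 to 60932103), but the genes do not, and 100% of the Map2k3os counts lay in bins that no other gene shares. Mapk1ip1 rose by 0.94, and Mapk1ip1l was not called (0.06), though library totals called it as fallen (-0.31).

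Because counts were deposited per exon bin, the share of a gene's counts in each bin could be tested as well. Of 43 members with 2 or more bins to test, 14 had changed bin usage by the gene-level F test of diffSpliceDGE, or 32.6%, against 29.7% of all genes. Leaving out control B gave 9, and the other libraries 11 to 19. With Simes' method 12 were called, against 21.6% of all genes. The lowest p-values were those of Mapk8ip3 and Map3k12, whose bins are shared with other genes as described above. Among genes that share no bin, Mapk8 stood out for its last bin (chromosome 14, 33377898 to 33381048, minus strand, 3151 bases), at the 3' end. That bin held 12.2%, 14.6% and 16.0% of the gene's counts in control and 5.97%, 5.74% and 6.67% in EV-treated libraries (log2 difference in usage -1.24, adjusted p = 1.95e-08 over all bins). Its counts were 249, 241 and 526 in control and 249, 254 and 307 after EVs, so the rise of Mapk8 lay in its other bins. In Map3k10, a bin of 878 bases near the 5' end held 35.9%, 35.8% and 34.9% of the counts in control and 22.8%, 24.8% and 22.5% after EVs (adjusted p = 0.00721), and 3 bins at the other end, of which 2 overlap Ttc9b, took larger shares. In the fit on its bin with the most counts, Map3k10 was not called (0.02), and its rise of 0.55 thus depends on which bins are counted. In Map4k4, 5 of 63 tested bins took larger shares, each under 1% of its counts, so its rise was spread over the gene.

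Genes that act beside the members were read from 5 lists. As a background for their counts, 33.0% of all entries rose and 33.5% fell. Of 12 tested kinases of the MAP3K and MAP4K level that the name rule does not take, 4 rose and 5 fell; their median was -0.22 on the log2 scale, against -0.02 for all entries. Braf, a MAP3K of the ERK branch, went from 21.2 ± 2.96 to 88.2 ± 8.80 CPM (log2 fold change 2.06), and Stk24 rose by 0.55 (0.18, not called, under library totals), while Pak1 (-1.89) and Taok3 (-1.38) fell. Of 21 scaffolds, adaptors and activators, 13 rose and 4 fell (median 0.70), that is 81.0% called against 66.5% of all entries. Gadd45b, an activator of Map3k4, went from 7.26 ± 2.54 to 176 ± 32.4 CPM (4.60), and Traf6, the ubiquitin ligase upstream of Map3k7, from 15.0 ± 0.210 to 173 ± 13.1 CPM (3.53). The ERK scaffold Ksr2 (-4.20) and the joined entry of Arrb2 (-0.93) fell. Of 7 tested kinases that MAPKs activate, other than the Mapkapk genes, 3 rose and 3 fell: Rps6ka2 (2.87) and Mknk2 (0.66) rose, and Rps6ka1 (-1.57) and Mknk1 (-1.49) fell, so that both families held members of either direction.

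Of 10 dual-specificity phosphatases, which remove the activating phosphates from MAPKs, 7 rose and 1 fell (median 1.73), that is 80% called, where 66.5% of all entries were called and 33.0% rose. Dusp5, a nuclear phosphatase of ERK, went from 4.48 ± 0.734 to 81.9 ± 2.68 CPM (4.19), and Dusp16, which acts on JNK, from 16.1 ± 1.39 to 150.3 ± 3.62 CPM (3.22). Dusp6, the cytoplasmic phosphatase of ERK, fell (-0.81). Of 16 transcription factors that MAPKs phosphorylate, 7 rose and 4 fell (median 0.23). Jun, a target of JNK, rose by 0.99 and Max by 0.50 (0.13, not called, under library totals); Mef2c, a target of p38 and of the Mapk7 kinase, fell by 3.41 and Fos by 2.54. The count of rises in this last list went down to 4 under upper-quartile scaling, 1 under library totals, 4 without EV-treated C and 4 in the fit on the bins of single genes.

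The promoters of the members were compared with all 32851 entries of the RefSeq promoter table, each 250 bases before to 50 after a start site. The table held 54 promoters of 41 members, with the 3 members on chromosome 18 left out. Their median G and C content was 63.8%, against 52.7% over all promoters. An NF-kB motif, searched on both strands, was found in 6 of the 54 promoters, of 5 members (Map3k7, Map4k1, Map4k2, Mapk1ip1l and Mapk7), against 8.46% of all promoters. Both Mapk7 promoters overlap and hold the same site (chr11:61494290-61494299), so that site is counted in each. An AP-1 motif, TGANTCA, was found in 3 promoters (Map2k6, Map2k7 and Map3k10), against 7.81%, and the cAMP response element TGACGTCA in 1, of Mapk10, against 1.79%. The motifs do not overlap one another in these promoters. Of the 16 risen members with a promoter entry, 1 held the NF-kB motif and 2 the AP-1 motif; of the 11 fallen ones, 1 held the NF-kB motif. A match describes letters alone, and no match says nothing of a factor's binding.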

How the data were processed

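Poly(A)-selected RNA libraries (NEBNext Ultra) were made from 3 control and 3 EV-treated samples, per the labels' protocols. Trimmomatic 0.36, STAR, Subread and DESeq2 on GRCm38 are listed in the submitters' processing notes; for their settings, the annotation release and strand handling: not given in the sources used here. The deposited values are raw counts per exon bin, per the file headers. Reads that span bins appear to have been counted in each: a bin of 1 base in Map4k4 had 180 counts beside 178 in the bin before it in EV-treated A, so sums are not numbers of distinct reads. Totals were 109744701 to 162544804 counts per library, which set the precision of low members. The table of the whole series and the 6 single-sample files held the same counts.

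Bins were summed per entry, symbols were found for 49298 of 49644 identifiers, and 1194 entries join several genes. Groups were compared with edgeR 4.0.16 (glmQLFit, glmQLFTest, TMM factors 0.855 to 1.16, filterByExpr, Benjamini-Hochberg, threshold 0.05, 2-sided, R 4.3.3); SE is the log2 fold change over the square root of F. Bin usage was tested with diffSpliceDGE. Fits were tested on simulated data in which a far smaller share of genes changed than the 66.5% of entries called here. That test therefore does not bear on the choice of scaling. Alternatives were 3 other scalings, 2 filters, DESeq2 1.42.0, limma-voom (limma 3.58.1), a block for the title's letter, omission of each library, the bin with the most counts, single-gene entries, and, added after seeing the data, bins that overlap exons of 1 gene alone in GENCODE vM21 on GRCm38. Within groups, pairs of libraries had a chi-square of 85.1 to 254 per degree of freedom, above what counting noise gives.

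Members and lists were chosen with earlier results of these data known. Values in every library are given for members called with a log2 change of at least 1 and for the most abundant member per length of each tier; Map3k12, Map2k6, Mapk11, Mapk8ip3, the bins and the ratios were added after their values were seen. From each list up to 2 rising and 2 falling genes with the smallest p are named. The totals include 1 tested member and 1 marker gene that are not reported here. The list symbol Zak had no match. Promoters come from RefSeq (GRCm38.p6).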

Additional observations from a re-analysis of the deposited data

How the results depend on the processing

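Over the 17 other fits, 15 to 24 members rose and 12 to 20 fell, against 22 and 14 as reported; leaving out 1 library gave 19 to 22 and 12 to 15. Of the 36 called members, 31 kept their call in all 6 fits without a library. Counts limit Map3k21, Map3k13, Mapk13 and Mapk15, which the stricter filter left out. Signs turned under library totals alone for Map4k3 (-0.19), Map3k12 (-0.20), Map3k20 (-0.13), Map2k2 (-0.16), Map2k5 (-0.092) and Mapk1ip1l (-0.31, called), all relative to the median of -0.38 of all entries there; for Mapk1ip1l also under upper-quartile scaling (-0.065), with no filter (-0.018) and without EV-treated C (-0.028; -0.028 to 0.13 without 1 library); for Mapk11 without EV-treated B (-0.33 to 0.78 without 1 library); on the bin with the most counts for Map2k6 (0.16) and Mapk8ip3 (-0.11, a bin of Eme2 and Spsb3); and on single-gene bins for Map3k12 (-1.59), whose shared bins that fit leaves out. The cause of the others was not tested.

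Among the lists, library totals gave 1 rise and 8 falls of outside kinases, 7 falls of scaffolds, 1 rise of target factors and 2 falls of phosphatases; upper-quartile scaling gave 4 rises of target factors and 2 falls of phosphatases; single-gene bins gave 4 rises of target factors. Without 1 library, target factors had 4 to 6 rises and phosphatases 1 to 2 falls, and 9 (without control B) to 19 members (without EV-treated C) had changed bin usage. Levels of the leading members in CPM per kilobase on the bin with the most counts were 43.7 for Map4k3, 53.4 for Map3k11, 328 for Map2k2, 362 for Mapk3 and 118 for Mapkapk2 in control, and 141.9 for Map4k4, 91.2 for Map3k1, 454 for Map2k1, 293 for Mapk3 and 491 for Mapkapk2 after EVs. On single-gene bins they were 27.1, 25.5, 39.1, 193 and 51.5 in control and, for the genes where it moved past 1 SD, 89.7 for Map4k4, 197 for Map2k1, 154 for Mapk3 and 226 for Mapkapk2. On the bin with the most counts, Map3k12 led its tier in both groups, through the bin shared with Pcbp2, and Mapkapk5 led its tier in control.

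With the letter of the title as a replicate block, 24 members rose and 16 fell, and 16 had changed bin usage. Deviations of libraries with the same letter correlated by 0.035 (A), 0.167 (B) and 0.210 (C); not all passed 0.1, so the letters were not taken as pairs, although each library correlated best with its own letter, a hint from the data and not from the design.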
